A study of Sus scrofa with 19 samples.

Results

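The cardiac myosin heavy and light chains are the genes of the motor protein of heart muscle: the heavy chains MYH6, MYH7 and MYH7B and the light chains MYL2, MYL3, MYL4 and MYL7. They were looked up by symbol in the gene table that accompanies the series and joined by Ensembl identifier to the counts of each library. Of the 7 genes listed, 6 were found, among 25879 genes with counts and 14744 genes in that table, and all 6 passed the filter on low counts. RNA of heart tissue of 19 female large white pigs was sequenced, with 1 library per pig, to compare myocardial fibrosis of different origin. The DOX pigs (n = 5) received free doxorubicin and the MYO pigs (n = 5) its liposomal form Myocet, both at 60 mg/m2 in each of 3 cycles, and anterior wall was taken after 3 months because of the animals' health. The RemoLV pigs (n = 3) had a balloon occlusion of the left anterior descending artery for 90 min with reperfusion, and remote posterior wall was taken after 6 months. The Hyper pigs (n = 3) carried a 9 mm stent in the descending aorta from a juvenile age, and the Control pigs (n = 3) are called sham-operated in the labels and untreated in part of the study's methods. Anterior wall was taken from both of these groups, after 6 months. The DOX and MYO data came from an earlier study, so that drug, follow-up time and study of origin cannot be told apart in comparisons with the other groups.

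Sarcomeric myosin is built from a pair of heavy chains, each carrying the motor head and binding an essential and a regulatory light chain at its lever arm. MYH7 encodes the slow beta heavy chain, which prevails in the ventricles of large mammals, and MYH6 the faster alpha heavy chain of the atria. MYL2 and MYL3 are the ventricular regulatory and essential light chains, and MYL7 and MYL4 are their atrial counterparts, which are also made in the embryonic ventricle. MYH7B is an ancient slow myosin gene that hosts a microRNA and yields little full-length protein in the mammalian heart.

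The sample names of the deposit conflict, and this touches most results on myosin. In 8 of the 19 expression columns of the gene table, the library carries another group's label in its count file. Its 3 columns named Control hold the libraries labelled RemoLV, its 3 columns named RemoLV hold those labelled Control, and 1 DOX and 1 MYO library change places. Groups are given here by file label, and results with the table names stand beside them, since the counts and expression values used here do not decide between the namings. The 3 libraries labelled RemoLV also go against their description as ventricular wall. SLN, the atrial regulator of the calcium pump, had 62.1 ± 26 CPM (counts of a gene scaled to the TMM-adjusted total of its library, mean ± SD, n = 3) in them and at most 2.82 CPM in the other 16 libraries. IRX4, a transcription factor of ventricular muscle, had at most 0.178 CPM there and at least 8.38 CPM in each of the other 16 libraries. Of 14 atrial markers 12 were found, and they summed to between 3904 and 5548 CPM in the RemoLV libraries and to between 947 and 1309 CPM in the others, with HAMP at 0 in all libraries. The 6 ventricular markers summed to between 4.68 and 7.04 CPM against between 137 and 245 CPM, so neither sum overlapped. Totals of 9527710 to 20370209 counts stood behind these values. In bulk tissue, fewer cells of a type and less RNA per cell cannot be told apart.

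No value can be given for MYH6, and the value under MYH7 may hold both heavy chains. The gene table has no row named MYH6, and its MYH7 row, ENSSSCG00000002029, is called MYH6 in the Ensembl name list used here. In the RefSeq annotation of Sscrofa11.1, MYH7 lies at chr7:75650841-75672908 on the plus strand, and the next gene on that strand, LOC100736765 at chr7:75677666-75704486, encodes a myosin-6. Their coding sequences were 93.0% identical over 5792 aligned bases, and 35.2% of all 50-base stretches of MYH7 (2025 of 5759) also occur in the myosin-6 gene. The longest shared run had 567 bases, from coding base 5218 to 5784 of MYH7. A read wholly within such a stretch cannot be assigned to 1 of the genes by its own sequence, and whether its mate resolves it was not examined. The opening 90 bases of the run are shown:
MYH7 and myosin-6: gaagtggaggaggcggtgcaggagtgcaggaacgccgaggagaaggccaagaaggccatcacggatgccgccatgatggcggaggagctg
The 60 coding bases at which the genes differ most, bases 97 to 156 of each, show where reads could tell them apart, and the 18 differing bases are in capitals:
MYH7: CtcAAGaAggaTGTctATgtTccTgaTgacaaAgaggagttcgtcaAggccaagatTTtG
myosin-6: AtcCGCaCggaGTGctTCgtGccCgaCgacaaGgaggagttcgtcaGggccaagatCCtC
The name MYH7 is kept below for this row, and no ratio of alpha to beta heavy chain was formed.

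The light chains can be told apart, and the results below turn on their ventricular and atrial forms. MYL2 (ENSSSCG00000039710, chr14:32205953-32213848, minus strand) and MYL7 (ENSSSCG00000016751, chr18:51026436-51028917, plus strand) were 69.3% identical in coding sequence. MYL3 (ENSSSCG00000011325, chr13:29730271-29735616, minus strand) and MYL4 (ENSSSCG00000017307, chr12:16774655-16792213, minus strand) were 81.0% identical. No 50-base stretch was shared within either pair, nor between MYH7 and MYH7B (ENSSSCG00000007288, chr17:38362158-38385680, plus strand), which were 75.5% identical. The 60-base coding windows with the most differences within each pair are given 5′ to 3′ from RefSeq, with the bases that differ in capitals, 29 for the regulatory and 17 for the essential light chains:
MYL2: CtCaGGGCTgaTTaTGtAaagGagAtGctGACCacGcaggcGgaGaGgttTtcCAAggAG
MYL7: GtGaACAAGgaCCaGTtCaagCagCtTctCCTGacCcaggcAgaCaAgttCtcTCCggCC
MYL3: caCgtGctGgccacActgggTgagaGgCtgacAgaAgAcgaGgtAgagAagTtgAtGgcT
MYL4: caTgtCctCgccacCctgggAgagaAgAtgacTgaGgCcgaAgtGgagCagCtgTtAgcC
They start at coding bases 340 of MYL2, 364 of MYL7, 466 of MYL3 and 469 of MYL4.

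To show which motifs lie near the starts of the light chain genes MYL7, MYL3 and MYL4, the 250 bases before the start of a RefSeq transcript of each are given. For MYL4 that transcript, isoform X1, starts at chr12:16790227, whereas the gene as given above runs to 16792213. The MYL4 window therefore lies inside the gene, not before its outermost start. Both strands were searched for the MEF2 site, the CArG box of serum response factor and the M-CAT element (CATTCC), which are in capitals. Also searched were the GATA site (AGATAA), the core site of NKX factors (CACTT), the E-box (CANNTG), the half-site of thyroid hormone receptors (AGGTCA), the TATA box (TATAAA) and the site of TBX factors (AGGTGT):
MYL7 promoter, chr18:51026186-51026435, plus strand: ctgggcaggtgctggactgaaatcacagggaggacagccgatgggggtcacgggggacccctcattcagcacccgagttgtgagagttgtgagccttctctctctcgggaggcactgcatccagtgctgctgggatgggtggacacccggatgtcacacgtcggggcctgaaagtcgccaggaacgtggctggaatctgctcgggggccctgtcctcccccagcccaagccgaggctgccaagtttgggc
MYL3 promoter, chr13:29735617-29735866, minus strand: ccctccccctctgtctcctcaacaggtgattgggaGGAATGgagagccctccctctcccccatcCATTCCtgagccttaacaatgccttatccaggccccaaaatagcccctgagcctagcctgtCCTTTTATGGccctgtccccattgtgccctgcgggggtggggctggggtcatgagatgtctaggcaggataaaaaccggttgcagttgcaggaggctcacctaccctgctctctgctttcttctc
MYL4 promoter, chr12:16790228-16790477, minus strand: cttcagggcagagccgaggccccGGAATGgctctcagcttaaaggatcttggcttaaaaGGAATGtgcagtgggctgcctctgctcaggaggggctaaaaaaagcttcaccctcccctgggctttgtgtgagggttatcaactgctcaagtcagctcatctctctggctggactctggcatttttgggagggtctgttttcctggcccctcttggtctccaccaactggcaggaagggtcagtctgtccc
MYL3 held a CArG box 125 bases before the start, a motif found in 1.32% of the 19534 promoter windows of the genome, and M-CAT at 215 and 186 bases, and MYL4 held M-CAT at 227 and 191 bases (10.2% of windows). Of the 9 motifs, MYL7 held an E-box alone, which 61.5% of windows hold. E-boxes also lay at 228 and 43 bases in MYL3 and at 112 and 28 bases in MYL4. A match is a description of these letters, and none was tested for use in this tissue.

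In the libraries labelled Control, MYL2 was the most abundant member per coding length and MYL4 the least. Levels per length, in CPM per kb of coding sequence, were 31637 ± 4491 for MYL2, 10013 ± 2144 for MYL3, 7368 ± 1641 for MYH7, 176 ± 55.4 for MYL7, 134 ± 58 for MYH7B and 3.21 ± 2.12 for MYL4 (SD, n = 3 each). In the RemoLV libraries the order was led by MYL4 with 12069 ± 1787 CPM per kb, followed by MYL7 with 7868 ± 1471, MYL3 with 4364 ± 829 and MYH7 with 4091 ± 336 (SD, n = 3 each). MYL2 had only 116 ± 101 CPM per kb in them. The 6 genes together held 5.09 ± 0.197% of all counts in Control, 5.59 ± 0.585% in Hyper, 5.89 ± 0.139% in DOX, 5.63 ± 0.421% in MYO and 4.31 ± 0.257% in RemoLV.

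**Figure D1:**
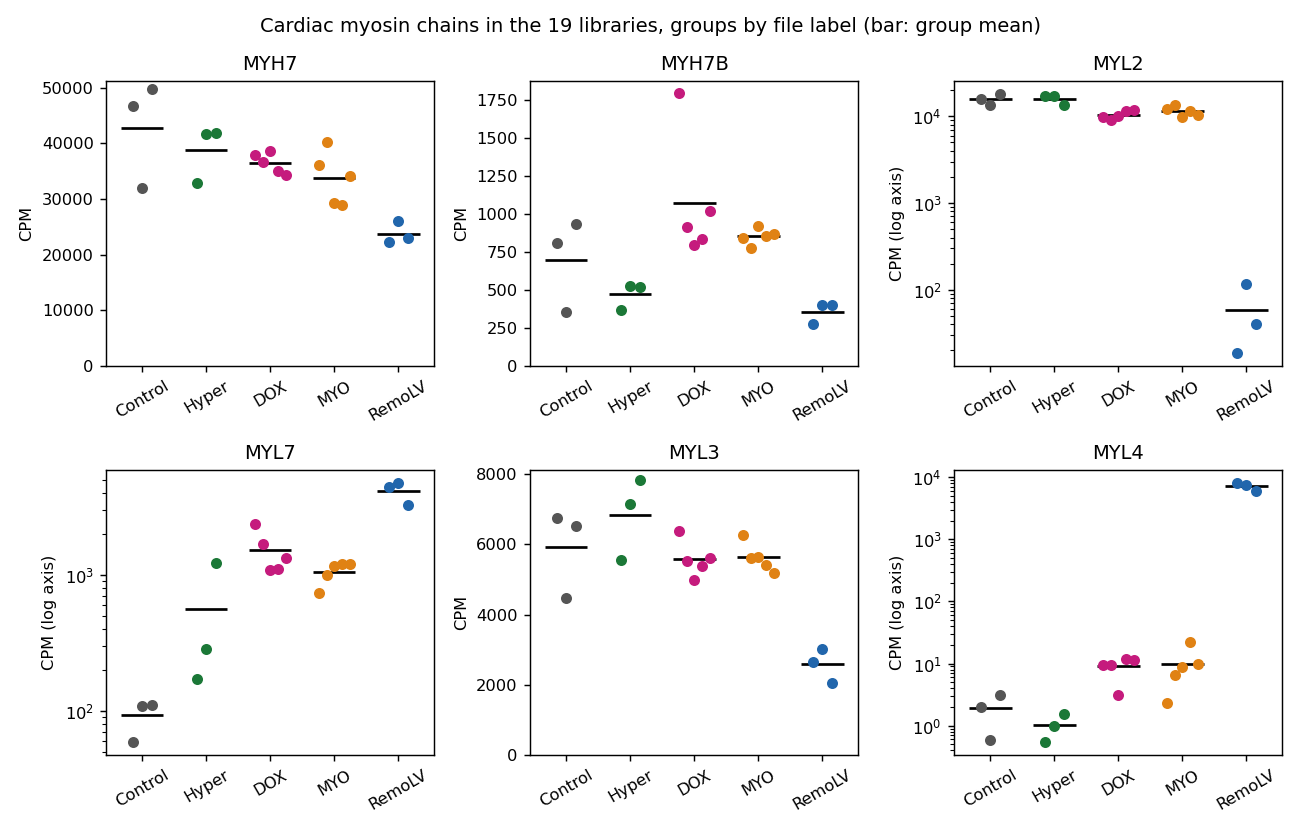
Each panel shows 1 myosin gene, with CPM on the vertical axis (log axis for MYL2, MYL7 and MYL4), the 5 groups by file label on the horizontal axis, a point for each library and a bar for the group mean. The RemoLV libraries stand apart in MYL2 (18.6 to 115 CPM), MYL4 (6029 to 8130 CPM) and MYL7 (3281 to 4770 CPM).

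The ventricular regulatory light chain MYL2 was nearly missing from the RemoLV libraries. They had 18.6, 115 and 40 CPM in replicates 1 to 3, from 264, 2044 and 449 counts, whereas Control had 15896, 13577 and 18077 CPM and Hyper 17204, 17028 and 13455 CPM. DOX had 9935, 8975, 10114, 11370 and 11762 CPM and MYO 12159, 13502, 9941, 11418 and 10413 CPM. RemoLV lay below every other library. On this TMM-scaled measure the drug groups also lay below Control without overlap, by 13502 against 13577 CPM at the nearest. Scaled to the library total alone they overlapped, with 11678 to 13095 CPM without TMM in Control, 9965 to 12807 in DOX and 10595 to 13137 in MYO. Hyper and Control overlapped, as did DOX and MYO, while the highest MYO library lay above the lowest Hyper library.

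Its atrial counterpart MYL7 ran the other way. The Control libraries had 59.1, 108 and 111 CPM, and the Hyper libraries had 172, 287 and 1229 CPM, all above Control but with replicate 3 within the range of the drug groups. DOX had 2379, 1683, 1080, 1104 and 1326 CPM, and MYO had 736, 995, 1164, 1193 and 1193 CPM. RemoLV had 4411, 4770 and 3281 CPM, above every other library. In the order of means, RemoLV lay above DOX without overlap, DOX overlapped MYO, MYO overlapped Hyper, and Hyper lay above Control without overlap.

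The atrial essential light chain MYL4 split the series most sharply of the 6 members, with 727-fold between the means of RemoLV and MYO, the next group. It had 8130, 7348 and 6029 CPM in the RemoLV libraries and at most 21.9 CPM in the other 16. Control had 2.02, 0.594 and 3.1 CPM and Hyper 0.55, 0.978 and 1.54 CPM, from 8 to 44 counts per library. DOX had 9.61, 9.58, 3.13, 11.9 and 11.3 CPM, and MYO had 2.3, 6.65, 8.68, 21.9 and 9.81 CPM. DOX therefore lay just above Control without overlap, and MYO overlapped both DOX and Control, the latter no longer with scaling to the library total alone. MYL3, its ventricular counterpart, was still well detected in RemoLV with 2651, 3030 and 2057 CPM, against 6755, 4460 and 6538 CPM in Control. The 13 MYL3 values of Hyper, DOX and MYO lay between 4991 and 7840 CPM, within or above the Control range, and their ranges overlapped each other and Control. Scaled to the library total alone, MYL3 in DOX and MYO lay above Control without overlap, at 5172 or more against at most 4963 CPM without TMM.

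Both heavy chain genes were lowest in RemoLV. MYH7 had 22349, 25986 and 22948 CPM there, below all other libraries, which spanned 28970 to 49805 CPM with Control at 46633, 31944 and 49805 CPM. MYH7B had 275, 399 and 399 CPM in RemoLV, 371, 527 and 522 CPM in Hyper, 777 to 922 CPM in MYO and 807, 356 and 931 CPM in Control. DOX replicate 1 stood apart with 1797 CPM, while the other DOX libraries had 794 to 1017 CPM. Control replicate 2 was the lowest of its group in both heavy chains and in all light chains but MYL7.

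Counting the light chains as pairs removes the scaling between libraries. MYL7 made up 0.591 ± 0.211% of the counts of MYL7 and MYL2 together in Control and 98.7 ± 0.976% in RemoLV (SD, n = 3 each). It made up 3.67 ± 4.08% in Hyper (SD, n = 3), where single libraries had 0.991%, 1.66% and 8.37%. In DOX the share was 12.7 ± 4.58% and in MYO 8.56 ± 2.15% (SD, n = 5 each), with ranges of 8.85 to 19.3% and 5.71 to 10.5%. MYL4 made up 0.0302 ± 0.0171% of MYL4 and MYL3 in Control, 0.0144 ± 0.00493% in Hyper and 73.6 ± 2.45% in RemoLV (SD, n = 3 each). In DOX and MYO that share was 0.162 ± 0.0612% and 0.18 ± 0.137% (SD, n = 5 each). The atrial share was thus near complete for the regulatory light chain in RemoLV but not for the essential one, of which 24.6 to 29.2% was still MYL3. With table names, the values of Control and RemoLV change places, and the MYL7 share was 11.9 ± 5.54% in DOX and 9.44 ± 1.49% in MYO (SD, n = 5 each).

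**Figure D2:**
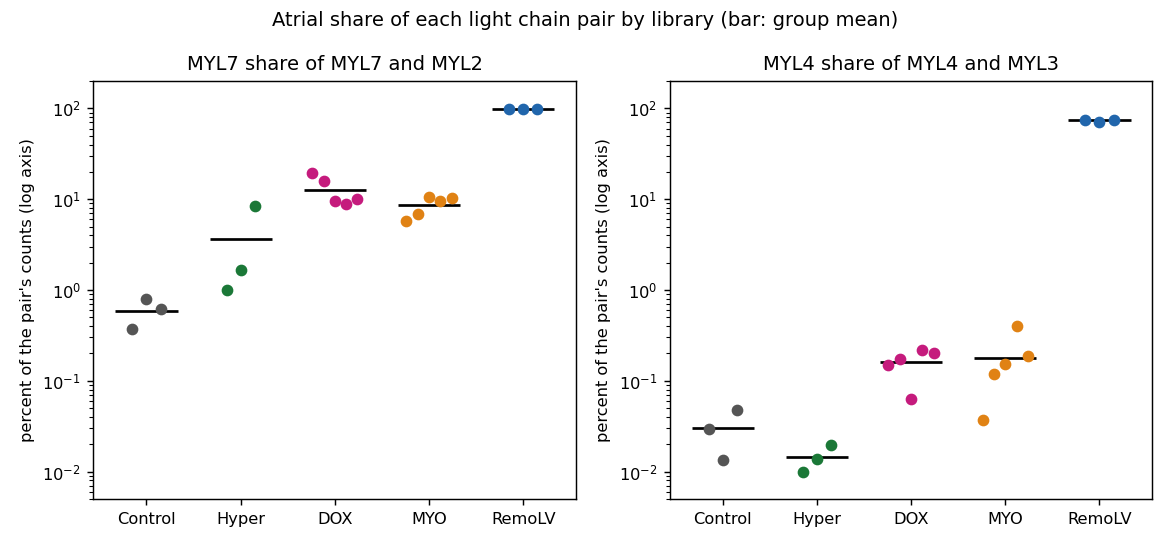
The vertical axes (log axis) give MYL7 as a percentage of MYL7 and MYL2 counts and MYL4 as a percentage of MYL4 and MYL3 counts, with a point per library, a bar for the group mean and groups by file label. RemoLV sits at 97.6 to 99.6% and 70.8 to 75.4%, and both the drug groups and Hyper lie above Control in the MYL7 share. Hyper replicate 3, at 8.37%, lies within the MYO range of 5.71 to 10.5%.

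Relative to the heavy chain, the 2 kinds of light chain lay on opposite sides of Control in RemoLV. Per coding length, MYL2 and MYL7 together had 4.39 ± 0.517 times the level of MYH7 in Control and 1.95 ± 0.312 times in RemoLV (SD, n = 3 each). MYL3 and MYL4 together had 1.36 ± 0.0672 times the level of MYH7 in Control and 4.03 ± 0.644 times in RemoLV (SD, n = 3 each). In Hyper, DOX and MYO these ratios lay between 3.34 and 6.11 for the regulatory and between 1.27 and 1.9 for the essential light chains. These ratios are descriptions, with the limit that MYH7 may include reads of the alpha heavy chain.

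The comparison of RemoLV with Control asks what differs in remote tissue of an infarcted heart, and here it sets the libraries with atrial markers against ventricular ones. By file label MYL4 and MYL7 were higher and MYL2, MYL3, MYH7 and MYH7B were lower in RemoLV. All 6 members passed the edgeR test at an adjusted p of at most 0.05, where 47.2% of the 13552 genes tested did (23.1% higher and 24% lower). The changes of MYL2, MYL4 and MYL7 also passed the study's threshold of an absolute log2 fold change of 2, as 6.35% of genes did. The libraries did not overlap in any member but MYH7B, and 52.1% of all genes did not overlap. MYL4 ranked 2nd of all genes tested by absolute change, its log2 fold change being 11.90 with a standard error of 0.83 (edgeR, adjusted p = 1.38e-08). MYL2 was 273-fold lower, at a log2 fold change of -8.09 ± 0.51 (SE, edgeR, adjusted p = 4.57e-09). With 1 library left out in turn, this value ran from -9.09 to -7.67. MYL7 was 44.7-fold higher, MYL3 2.29-fold lower, MYH7B 1.95-fold lower and MYH7 1.8-fold lower. The edgeR adjusted p-values of these 4 were 1.6e-06, 2.89e-05, 0.0153 and 0.000527. The call of MYH7B ended without RemoLV replicate 1, Control replicate 1 or Control replicate 3 (adjusted p = 0.0712, 0.0556 and 0.0985, edgeR) and it ended with scaling to library size alone or to genes of all cardiomyocytes (log2 fold change -0.38 and -0.48) and in the fit of only the groups compared (-0.95, edgeR, adjusted p = 0.0547).

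Both namings give this contrast the same size with the opposite sign, beside 47.2% of genes called in each. With table names the log2 fold change was -11.90 for MYL4, -5.48 for MYL7 and 8.09 for MYL2 (adjusted p = 6.65e-09, 2.26e-06 and 4.82e-09, edgeR). Nothing remains of this comparison without the libraries labelled RemoLV. The change in the light chains moved with the chamber markers: 8 of the 8 atrial markers that pass the filter on low counts also without the RemoLV libraries were higher and 6 of 6 ventricular markers lower in RemoLV, with list medians of 2.02 and -5.17 against 0.02 over all genes. HEY2, a ventricular repressor of atrial genes, had 3.52 ± 1.3 CPM in RemoLV and 88.5 ± 31.5 CPM in Control (SD, n = 3 each). DKK3, a secreted atrial marker, rose from 12.5 ± 1.29 to 789 ± 107 CPM (SD, n = 3 each). PAM, the enzyme of atrial granules, rose from 912 ± 226 to 2574 ± 735 CPM (SD, n = 3 each). Of the 3 conduction system markers that pass without these libraries, SHOX2 was higher, with 46.6 ± 21.1 CPM against 1.57 ± 0.678 CPM (SD, n = 3 each), and fibroblast markers summed to 10730 to 12395 CPM against 2095 to 3489 CPM. The part of other cells or chambers in the myosin result was not tested.

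**Figure D3:**
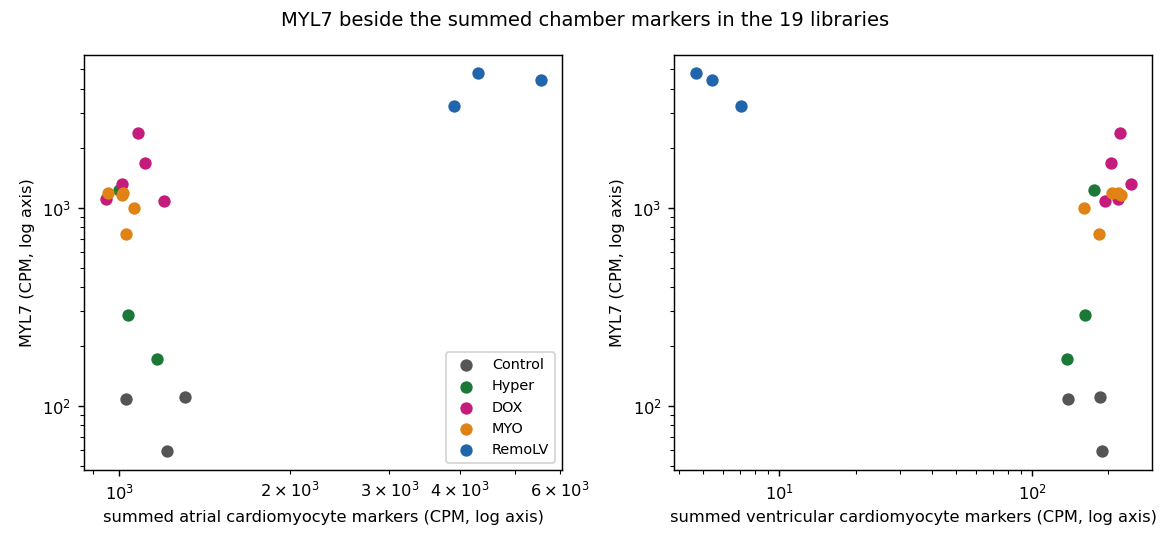
MYL7 in CPM (vertical, log axis) is plotted against the summed atrial and ventricular cardiomyocyte markers in CPM (horizontal, log axes), with a point per library coloured by file label. The RemoLV libraries lie apart on both axes, at 3904 to 5548 CPM of atrial and 4.68 to 7.04 CPM of ventricular markers, while MYL7 varies from 59.1 to 2379 CPM among the other 16 at 947 to 1309 CPM of atrial markers.

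Among the partners of myosin, RemoLV was lower than Control in 5 of the 11 tested genes for binding, assembly and folding and higher in none, with a list median of -0.33, but higher in 2 and lower in 3 with library size scaling. Over all genes 47.2% were called in this comparison (23.1% higher and 24% lower). That share was 53.2% with library size scaling and 49% with cardiomyocyte gene scaling. MYOM2, an M-band protein that crosslinks thick filaments, had 1380 ± 200 CPM in RemoLV against 3308 ± 466 CPM in Control (SD, n = 3 each), a log2 fold change of -1.26. MYBPC3, cardiac myosin-binding protein C, fell by 0.33 on the log2 scale, and with library size scaling its value was 0.19. Of the 11 genes for phosphorylation of regulatory light chains, 1 was higher and 7 lower, with 2 in each direction under either of the other scalings. MYLK, the smooth muscle light chain kinase, had 90.4 ± 12.7 CPM against 225 ± 162 CPM (SD, n = 3 each), a call that ended under both other scalings. Of the 20 regulators of myosin genes, 3 were higher and 7 lower, with a median of -0.11, but 9 were higher and 2 lower with library size scaling. The retinoid receptor genes went apart, RXRG with -1.38 and RXRA with 0.29 on the log2 scale, and both were called under all 3 scalings. MEF2C and MEF2D had -0.58 and -0.79, called with TMM but not with library size scaling (-0.09 and -0.20) or cardiomyocyte gene scaling (-0.17 and -0.30). MYH15, a slow myosin heavy chain, fell by 5.35 to 0.138 ± 0.192 CPM (SD, n = 3), the only call with TMM among 4 other striated muscle myosins. Under either of the other scalings 1 of the 4 was higher and 1 lower. The smooth muscle light chain MYL9 rose by 0.70 and the nonmuscle light chain MYL12A fell by 0.94 on the log2 scale, among 1 higher and 3 lower of 6 smooth muscle and nonmuscle chains.

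DOX and MYO were each compared with Control to describe the effect of the drug on ventricular tissue, and the atrial light chains were the members that changed. MYL7 was higher by 16.3-fold in DOX and by 11.4-fold in MYO, and MYL4 by 4.85-fold and 5.23-fold. In both comparisons 2 of 6 members were called, both higher, beside 42.1% of all genes in DOX and 42.4% in MYO (21% and 20.7% higher). On the log2 scale MYL7 rose by 4.03 ± 0.53 in DOX (SE, edgeR, adjusted p = 2.26e-05) and by 3.51 ± 0.52 in MYO (SE, edgeR, adjusted p = 6.21e-05). MYL4 rose by 2.28 ± 0.60 (SE, edgeR, adjusted p = 0.00602) and by 2.39 ± 0.60 (SE, edgeR, adjusted p = 0.00428), the MYO libraries overlapping Control. Both members passed the fold threshold of 2 in either group, as 2.75% and 2.47% of all genes did. In order of absolute change MYL7 ranked 74th in DOX and 90th in MYO of the 13552 genes. Without the RemoLV libraries in the fit MYL7 had 4.03 and 3.51 and MYL4 2.28 and 2.38, all still called. These comparisons share the same 3 Control libraries.

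MYL2 had lower TMM-scaled CPM in every drug library than in every Control library, yet this was not called by the main test and the groups overlapped without TMM. Its log2 fold change was -0.60 in DOX and -0.46 in MYO, with adjusted p-values of 0.153 and 0.274 (edgeR, 1 fit of all 19 libraries). In the fit without the RemoLV libraries, a choice made after seeing the data, the estimates stayed at -0.60 and -0.46 with smaller standard errors of 0.14, and adjusted p was 0.00289 and 0.0134. A fit of only the groups compared also called it, at -0.60 and -0.48 (edgeR, adjusted p = 0.0137 and 0.0325). With library size alone the values were -0.16 and -0.02 (edgeR, adjusted p = 0.704 and 0.96), and with scaling to cardiomyocyte genes they were -0.29 and -0.19. On TMM-scaled CPM, MYL2 counted, 3 members in DOX and 2 in MYO did not overlap with Control, beside 34.5% and 37.6% of all genes. As shares of the library total it was 5 and 4 members, MYL2 not among them, beside 35.6% and 38.3% of genes. MYL3 had log2 fold changes of -0.09 and -0.07 and MYH7 of -0.23 and -0.34, with no call by the main test, whereas DESeq2 called MYH7 lower in MYO (-0.37, adjusted p = 0.028), beside 44.3% of genes. MYH7B had 0.62 in DOX (adjusted p = 0.0803) and 0.29 in MYO (adjusted p = 0.413), and its DOX value was 0.34 without DOX replicate 1 and 0.30 without Control replicate 2. It was called higher with library size alone, at 1.10 and 0.79 (edgeR, adjusted p = 0.0012 and 0.0106), and with cardiomyocyte gene scaling, at 0.94 and 0.61 (edgeR, adjusted p = 0.00277 and 0.0339). With library size alone, MYH7 and MYL3 took the opposite sign, 0.23 and 0.37 in DOX and 0.11 and 0.39 in MYO, and MYL3 was called higher in both (edgeR, adjusted p = 0.0235 and 0.019), while the median of all genes moved to 0.446 and 0.442.

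Most atrial markers did not rise with MYL7 in the drug groups. Of 9 atrial markers tested, 2 were higher in DOX and 1 in MYO, with medians of -0.11 and -0.14, which became 0.32 and 0.21 with 2 higher in each under library size scaling. Over all genes 21% were higher in DOX and 20.7% in MYO. The marker sums of 947 to 1198 CPM in DOX and 954 to 1061 CPM in MYO lay beside 1028 to 1309 CPM in Control. PAM alone gave 595 to 1108 CPM of the sum in each of these libraries and of Hyper, so that the sum says little of the other markers. STARD10 rose in DOX by 0.43 on the log2 scale, and DKK3 was higher in both groups, with 64.4 ± 22.8 CPM in DOX and 48.4 ± 18.3 CPM in MYO (SD, n = 5 each) against 12.5 ± 1.29 CPM in Control. Of 6 ventricular markers, 3 were higher in each drug group and 0 lower, with medians of 0.89 and 0.82, and 5 were higher in each with library size scaling. Among them IRX4 rose by 1.14 and 1.10 in DOX and MYO and PRDM16 by 1.51 and 1.38 on the log2 scale. Fibroblast markers moved with the drug groups, at sums of 4815 to 7179 CPM in DOX and 4616 to 6714 CPM in MYO against 2095 to 3489 CPM in Control, and their part in these values was not tested.

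With table names the drug groups are set against the libraries rich in atrial light chains, and every light chain turns its sign. MYL7 then had log2 fold changes of -1.57 in DOX and -1.82 in MYO, MYL4 -9.93 and -9.27, and MYL2 7.50 and 7.62. All 6 members were called in both groups, beside 29.6% and 29.2% of all genes.

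**Figure D4:**
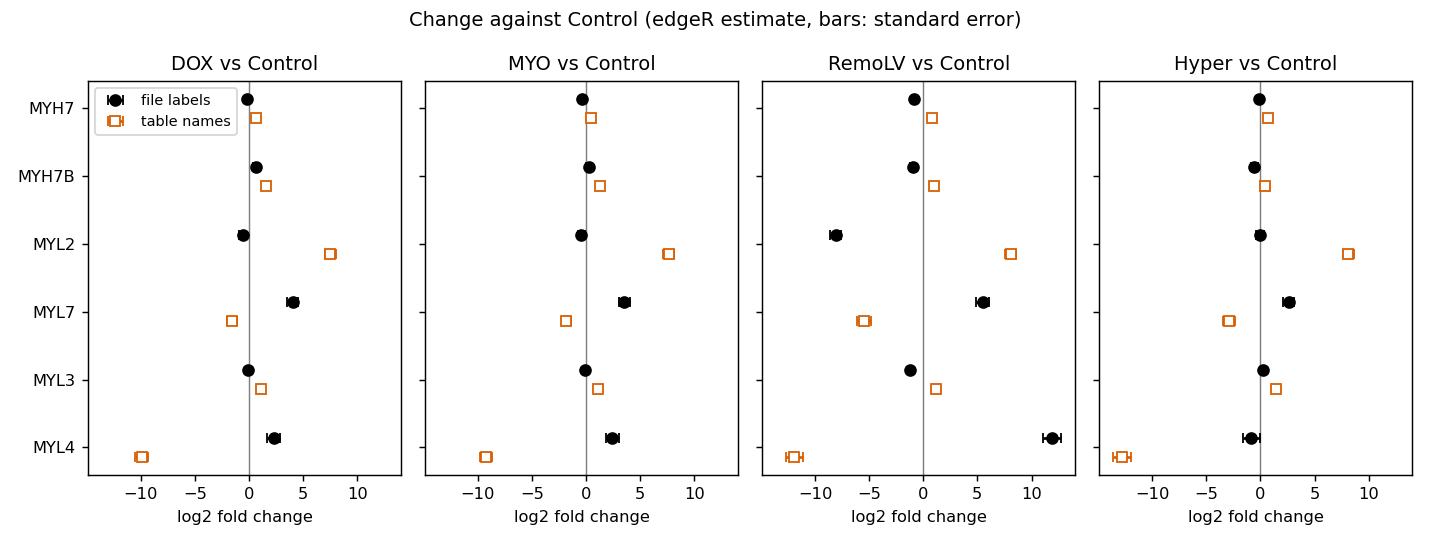
Log2 fold change against Control (horizontal axis) is given for each member in the 4 treated groups, with file labels as black circles and table names as orange squares, and bars for the standard error. MYL2, MYL4 and MYL7 in RemoLV sit at -8.09, 11.90 and 5.48 with file labels and at the mirrored values with table names.

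Of the genes that act on the regulatory light chains, 3 were higher and 5 lower of 11 in DOX, and 3 and 6 in MYO, while library size scaling gave 4 and 3 in DOX and 4 and 5 in MYO. Over all genes 42.1% were called in DOX and 42.4% in MYO (21% and 20.7% higher), and 46.7% and 46.1% with library size scaling. PPP1R12B, the myosin-targeting subunit of striated muscle light chain phosphatase, rose by 0.34 in DOX and 0.37 in MYO on the log2 scale. PPP1CB, its catalytic subunit, had 435 ± 24.7 CPM in DOX and 420 ± 21.3 CPM in MYO (SD, n = 5 each) against 691 ± 86.5 CPM in Control, log2 fold changes of -0.67 and -0.72, which became -0.23 and -0.28 and were not called with library size scaling. MYLK3, the kinase of cardiac regulatory light chains, fell by 0.92 in MYO. Of the 11 genes for binding, assembly and folding, 1 was higher (MYBPC3, by 0.29 in DOX and 0.38 in MYO) and 3 lower in each group, among them MYOM1 and MYOM2, the latter called under neither other scaling. With library size scaling that split turned to 5 against 0 for DOX and 4 against 1 for MYO. GATA4, an activator of cardiac sarcomere genes, rose from 105 ± 3.53 CPM (SD, n = 3) to 159 ± 13.5 CPM in DOX and 156 ± 13.7 CPM in MYO (SD, n = 5 each). It was 1 of 6 higher and 6 lower of 20 regulators in DOX and of 5 higher and 8 lower in MYO, and library size scaling turned these to 11 and 2 and to 7 and 3. MEF2A, a partner of GATA4, had -0.41 in DOX and -0.60 in MYO on the log2 scale, called with TMM but not with library size scaling (-0.00 and -0.18) or cardiomyocyte gene scaling (-0.14 and -0.34). MYL1, a light chain of fast skeletal muscle, had 23.5 ± 26.4 CPM in DOX and 12.7 ± 9.16 CPM in MYO (SD, n = 5 each) against 124 ± 86.5 CPM in Control, and was called lower in both. Among 12 genes that all cardiomyocytes share, DOX had 7 lower and 2 higher and MYO had 6 lower and 1 higher, with medians of -0.45 and -0.44. With library size scaling these 12 turned in DOX to 3 higher against 1 lower and in MYO to 4 higher against 2 lower, with medians of -0.00 and 0.01, and scaled to themselves they had 2 higher against 3 lower in DOX and 2 each way in MYO.

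Free and liposomal doxorubicin were given at the same dose and compared at the same time, and no member differed by the test. In the 1 pair of drug forms, 0 of 6 members were called, at adjusted p by edgeR and by DESeq2, and 0 had an unadjusted p under 0.05, beside 0% and 7.08% of all genes. The libraries overlapped in all 6 members, and 1.47% of genes did not overlap. The log2 difference, DOX minus MYO, was 0.52 for MYL7, with a 95% interval from -0.28 to 1.32. For MYL4 it was -0.11 (-1.03 to 0.81), for MYL2 -0.14 (-0.75 to 0.47), for MYH7B 0.33 (-0.16 to 0.82), for MYH7 0.11 (-0.16 to 0.38) and for MYL3 -0.01 (-0.29 to 0.26). The intervals were widest for MYL4 and MYL7 and narrowest for MYH7 and MYL3. With table names, which exchange 1 library of each group, the difference was 0.25 for MYL7 and -0.66 for MYL4, again without a call.

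Pressure overload was addressed by Hyper against Control, where MYL7 had the largest difference of the members without passing the main test. It was 6.06-fold higher, at a log2 fold change of 2.60 with a 95% interval from 1.51 to 3.69. The adjusted p was 0.0894 in the edgeR fit across all genes. Of 6 members 0 were called, as were 0% of all genes, and 1 member had an unadjusted p under 0.05, as 17.8% of genes did. DESeq2 called MYL7 with an adjusted p of 0.00202, beside 2.5% of the genes it tested. The call also appeared in edgeR without Hyper replicate 1 (adjusted p = 0.00902), beside 5.6% of genes, or Control replicate 2 (adjusted p = 0.00717), beside 18.4%. The fold rests largely on Hyper replicate 3, without which the log2 fold change was 1.30. MYL7 alone did not overlap between Hyper and Control, as was the case for 9.75% of genes. The log2 fold change was 0.00 for MYL2, 0.21 for MYL3, -0.14 for MYH7, -0.56 for MYH7B and -0.86 for MYL4, and all of these intervals included 0. None of the 9 atrial markers was called, as no gene was, and 1 had an unadjusted p under 0.05, beside 17.8% of all genes. Their sum of 998 to 1165 CPM lay beside 1028 to 1309 CPM in Control, and it says little of markers other than PAM. With table names 5 of 6 members were called in Hyper, beside 35.8% of genes, with MYL4 at -12.76, MYL2 at 8.10 and MYL7 at -2.88.

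Set directly against each other, RemoLV and Hyper differed in 5 of 6 members, beside 35.6% of all genes (17% higher, 18.6% lower), and the same 5 did not overlap, beside 48% of all genes. MYL4 was higher in RemoLV by 12.76 and MYL7 by 2.88 on the log2 scale, while MYL2, MYL3 and MYH7 fell by 8.10, 1.41 and 0.71 (adjusted p between 4.88e-09 for MYL2 and 0.00309 for MYH7, edgeR). With 1 library left out in turn, the MYL7 value ran from 2.45 to 4.17. Hyper replicate 3 had 1229 CPM of MYL7, against 172 and 287 CPM in the others of its group. MYH7B had -0.40 (edgeR, adjusted p = 0.322). With table names, which put the libraries labelled Control in the place of RemoLV, 0 of 6 members and 0% of genes were called, and MYL7 had -2.60 (adjusted p = 0.0886, edgeR). At an unadjusted p under 0.05 that fit counted 1 member, MYL7. The same libraries compared by file label, Hyper against Control, had 17.8% of all genes at that level. DESeq2 was not run with table names.

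The comparison of both drug groups with Hyper holds the same 13 libraries under either naming. MYL4 was 9.13-fold, MYL7 2.25-fold and MYH7B 2.02-fold higher with the drugs, and 3 of 6 members were called, all higher, beside 32.6% of all genes (15.8% higher). The log2 fold changes were 3.19 ± 0.63 for MYL4, 1.17 ± 0.43 for MYL7 and 1.01 ± 0.26 for MYH7B (SE, edgeR, adjusted p = 0.000968, 0.0425 and 0.00668). With table names they were 3.16, 1.19 and 1.02, all called, beside 32.7% of genes. The 10 drug libraries had 777 to 1797 CPM of MYH7B and the 3 Hyper libraries 371 to 527 CPM, without overlap. MYL4 did not overlap either, with 2.3 to 21.9 CPM against 0.55 to 1.54 CPM, and 21% of all genes did not overlap, whereas Hyper replicate 3 lay within the drug range of MYL7. MYL2 had a log2 fold change of -0.54 (adjusted p = 0.169), which became a call in the fit without the RemoLV libraries (adjusted p = 0.00363). The call of MYL7 ended in that fit (adjusted p = 0.0568) and without any 1 of 9 libraries, DOX replicates 1 and 2, MYO replicates 2 to 5, RemoLV replicate 1 and Hyper replicates 1 and 2 (edgeR, adjusted p from 0.0504 to 0.22, log2 fold change from 0.74 to 1.18). It was 2.46 without Hyper replicate 3. Without Hyper replicate 1 the call of MYH7B also ended (adjusted p = 0.0605). Among partners of myosin, MYH3, the embryonic heavy chain, rose by 1.74 to 4.65 ± 1.2 CPM (SD, n = 10), PPP1R12B rose by 0.60, PPP1R12A fell by 1.17 and RXRG fell by 1.11 on the log2 scale. Markers of other cells moved in this comparison too, with 3 of 8 fibroblast, 3 of 5 endothelial and 2 of 6 smooth muscle markers higher and 1 of 4 fat cell markers lower, and fibroblast sums of 4616 to 7179 CPM with the drugs against 1572 to 3934 CPM in Hyper. Their part in the myosin values was not tested.

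The genes whose log2 CPM followed a member most closely over the 19 libraries were found by Pearson correlation among 9787 genes, as a description. The libraries share 5 groups, and RemoLV stands apart in most members, so that the value over the other 16 libraries is given in brackets. MYL2 was followed by BDH1, the ketone body enzyme, at 0.990 (0.674), by PCP4 at 0.982 (0.852) and by PDLIM1 at 0.977 (0.297). MYL3 was followed by COQ9, for coenzyme Q synthesis, at 0.978 (0.843), by MCRIP2 at 0.972 (0.834) and by the fatty acid binding protein FABP3 at 0.968 (0.796). MYL4 was followed by ZNF385A at 0.954 (0.774), by HTRA3 at 0.953 (0.812) and by TNNI1, the troponin I of slow skeletal and fetal heart muscle, at 0.951 (0.855). MYL7 was followed by ADAM19 at 0.944 (0.917), by CORO2B at 0.941 (0.939) and by the Notch ligand JAG1 at 0.941 (0.917). MYH7 was followed by DYSF at 0.920 (0.829), by OGDH of the citric acid cycle at 0.917 (0.801) and by LDB3 of the Z-disc at 0.916 (0.839). MYH7B was followed by PKDCC at 0.947 (0.928), by the creatine transporter SLC6A8 at 0.934 (0.963) and by ACTN4 at 0.929 (0.895). The neighbours of MYL7 and MYH7B kept values near 0.9 without RemoLV, while PDLIM1 beside MYL2 had the lowest value of those named.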

How the data were processed

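RNA of heart tissue, described by the study as left ventricular, from 19 pigs was sequenced, 1 library per pig. Per the submitters' processing notes and the study's methods, the authors aligned the read pairs with STAR to Sscrofa11.1 and made the deposited counts per Ensembl gene with HTSeq 0.11.1. The gene table deposited by the authors holds expression per library on a log2 scale, used here only to match names, and log2 fold changes and adjusted p-values of the authors' own comparisons, which were not used. The totals per library ran from 9527710 to 20370209 counts with a median of 14527230. Counts were fitted in 1 quasi-likelihood model of all 19 libraries with edgeR 4.0.16 in R 4.3.3, after TMM scaling and filterByExpr, which kept 13552 genes. P-values were adjusted over these genes by Benjamini-Hochberg and called at an adjusted p of at most 0.05. They rest on a spread between pigs estimated per gene over all groups, so that a comparison also carries the spread of groups outside it. CPM values are scaled by TMM, and a log2 CPM used a prior count of 2. Intervals of a log2 fold change are at 95%. Alternatives were RLE size factors, library size only, scaling to 12 cardiomyocyte genes, no filter, a minimum of 10 counts, only the groups compared, the replicate number as a block, the table names, each library left out, and DESeq2 1.42.0. Sums, shares and figures were made with Python 3.11.15, numpy 2.4.6, pandas 2.3.3 and matplotlib 3.10.9. Named are all members, up to 4 called genes with the highest mean level per list and comparison, and the 3 genes most like each member. SLN was chosen beyond that rule, after its values were seen. A further marker and the promoters other than the 3 printed are not reported here. The members and lists were chosen with earlier results of these data known. The fit was tested on simulated data. Sequences are from RefSeq.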

Additional observations from a re-analysis of the deposited data

Results flagged for a closer look

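In 16 tests of single libraries against the other 4 of their group (6 members and 2 shares, each in DOX and MYO), 2 libraries stood apart, where chance gives about 1 in 20. MYH7B had 1797 CPM in DOX replicate 1, with the next highest DOX library at 1017 CPM. Without this library the MYH7B difference between DOX and Control was 0.34 on the log2 scale (edgeR, adjusted p = 0.255). MYL4 had 3.13 CPM in DOX replicate 3 from 47 counts, with the next lowest DOX library at 9.58 CPM. With the table names this library stays in DOX, but the library labelled MYO replicate 1 joins it there at 2.3 CPM, so that it is not the lowest of that group.

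RemoLV and Hyper were each compared with the same 3 Control libraries, and the difference between their effects was tested in edgeR as RemoLV against Hyper. The effect was lower in RemoLV by a log2 difference of -0.71 for MYH7, -8.10 for MYL2 and -1.41 for MYL3. It was higher by 12.76 for MYL4 and 2.88 for MYL7. All 3 RemoLV libraries lay beyond all 3 Hyper libraries in these 5 genes. With table names none of these differences was called.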

How the results depend on the processing

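The atrial shares within a library do not depend on scaling, and per coding length they moved by less than the spread between libraries. With table names the MYL7 share was 98.7% in Control and 0.591% in RemoLV, and the MYL4 share was 73.6% and 0.0302%. With table names the members called were 6 in DOX, 6 in MYO, 5 in Hyper against Control and 0 in RemoLV against Hyper. Signs turned with them: against Control, in DOX to 0.63 for MYH7, 7.50 for MYL2, 1.15 for MYL3, -9.93 for MYL4 and -1.57 for MYL7, in MYO to 0.49, 7.62, 1.09, -9.27 and -1.82, and in RemoLV to 0.85 for MYH7, 0.96 for MYH7B, 8.09, 1.20, -11.90 and -5.48. In Hyper they turned to 0.71 for MYH7, 0.40 for MYH7B and -2.88 for MYL7, in RemoLV against Hyper to 0.14, 0.56 and -2.60, and in DOX against MYO to 0.05 for MYL3. Library size alone moved the median of all genes to 0.446 for DOX, 0.442 for MYO, 0.519 for RemoLV and 0.171 for Hyper, from at most 0.031 with TMM. It gave 4 members called in DOX and 4 in MYO, beside 46.7% and 46.1% of genes, and turned MYH7 to 0.23 in DOX, 0.11 in MYO, 0.06 in Hyper and 0.11 in both drugs against Hyper, and MYL3 to 0.37 in DOX and 0.39 in MYO. Scaling to cardiomyocyte genes moved that median to 0.319, 0.277, 0.441 and 0.066 and turned MYH7 in DOX to 0.10, MYL3 in DOX and MYO to 0.23 and 0.22, MYL3 in DOX against MYO to 0.02 and MYH7 in both drugs against Hyper to 0.08. A minimum of 10 counts in every library left MYL4 untested, with 1 member called in DOX and 1 in MYO, beside 45.8% and 46.3% of genes. DESeq2 called 1 member in Hyper, beside 2.5%. MYL2 in Hyper, at 0.00, turned to -0.01 with RLE, -0.01 with DESeq2 and -0.02 with the replicate block. Libraries of different groups share only a number: 32 pairs with the same number correlated at a median of 0.007 (from -0.246 to 0.242) and 110 other pairs at 0.001. With the replicate block the members called were 2 for DOX, 2 for MYO, 6 for RemoLV, 0 for Hyper, 5 for RemoLV against Hyper, 0 in DOX against MYO and 2 in both drugs against Hyper, where MYL7 was not called, beside 35.4%, 35.4%, 45%, 0%, 33.2%, 0% and 26.6% of genes, and MYL4 in DOX against MYO turned to 0.07. With each library left out in turn, the members called ranged from 2 to 3 in DOX and in MYO, 5 to 6 in RemoLV, 0 to 2 in Hyper, 1 to 4 in both drugs against Hyper, and stayed at 5 and 0 in the other comparisons. With all 19 libraries, 42.1% of genes were called in DOX, 42.4% in MYO, 47.2% in RemoLV, 0% in Hyper and 32.6% in both drugs against Hyper. RemoLV against Hyper had 35.6% and DOX against MYO 0%. Shares with a library left out are given only for the fits named next. Hyper had 1 call without Hyper replicate 1 and 2 without Control replicate 2, beside 5.6% and 18.4% of genes, and both drugs against Hyper had 1 without Hyper replicate 1, beside 18.3%. The MYL7 call in both drugs against Hyper was lost without any of 9 single libraries, with log2 fold changes of 0.74 to 2.46 over all 19. Leaving out 1 library also gave values of both signs: from -0.26 to 0.02 for MYL3 in DOX, -0.24 to 0.03 for MYL3 and -0.03 to 0.55 for MYH7B in MYO, and -0.10 to 0.11 for MYL2 in Hyper. In DOX against MYO they ran from -0.07 to 0.03 for MYL3 and from -0.36 to 0.41 for MYL4. The fit without the RemoLV libraries, chosen after seeing the data, called 3 members in DOX and 3 in MYO, beside 40.8% and 41.8% of genes. No alternative could be computed for MYH6. The cause of these changes was not tested. MYL4 rests on 8 to 44 counts per library in Hyper and Control, the fewest of the members.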

Other observations

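Markers of other cells differed between the same libraries and are given as values. Over all genes 47.2% were called in RemoLV, 42.1% in DOX, 42.4% in MYO and 0% in Hyper, each against Control. With library size scaling these shares were 53.2%, 46.7%, 46.1% and 0%. In RemoLV against Control, 5 of 8 fibroblast markers were higher, among them the collagen gene COL1A1, and 1 of 4 fat cell markers tested was higher. Of 5 endothelial markers tested, 2 were lower, but under library size or cardiomyocyte gene scaling 1 was higher and 0 lower, CDH5 turning from -0.38 to 0.15 and 0.07. WT1, a marker of the epicardium, fell by 2.97 on the log2 scale. Of 6 smooth muscle markers 1 was higher, DES, which is not particular to smooth muscle. It had 5498 ± 138 CPM in RemoLV against 3265 ± 513 CPM in Control (SD, n = 3 each), while ACTA2, TAGLN, CNN1, SMTN and MYH11 were not called. Of 3 skeletal muscle markers tested 1 was lower, and of 5 blood markers tested 1 was higher and 2 were lower. In DOX against Control, 3 of 8 fibroblast, 1 of 6 smooth muscle, 2 of 5 endothelial and 2 of 5 blood markers were higher, while 1 endothelial, 2 blood, 1 fat cell and 1 conduction marker were lower. WT1 rose by 1.00 in DOX and by 1.18 in MYO. In MYO, 3 fibroblast markers were higher and 1 lower, 2 smooth muscle markers (SMTN and DES) and 1 endothelial marker were higher, and 1 blood, 1 fat cell and 1 conduction marker were lower. No marker of these lists was called in Hyper against Control by edgeR, as no gene was. At an unadjusted p under 0.05 there were 1 fibroblast, 2 smooth muscle, 1 endothelial, 1 epicardial, 2 conduction and 0 skeletal muscle, blood or fat cell markers, beside 17.8% of all genes. With library size scaling, fibroblast markers higher were 7 in RemoLV, 5 in DOX and 4 in MYO, and endothelial ones 4 in DOX and 4 in MYO, with 0 lower. Blood markers were then 3 higher and 0 lower in DOX, 3 and 1 in MYO and 1 and 1 in RemoLV. No fat cell or conduction marker was then lower in DOX, and no fat cell marker in MYO. With table names these values belong to other groups, and the part of these cells in the myosin values was not tested.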
